A study of Mus musculus with 4 samples.

Results

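Aminoacyl-tRNA synthetases are the enzymes that attach each amino acid to its transfer RNA. Their genes were taken by symbol: every gene whose GENCODE mouse symbol is that of an amino-acid letter followed by "ars" with or without 1 or 2, or is Eprs, Farsa, Farsb or Tarsl2. This gave 38 of the 50600 annotated genes, of which 21 encode enzymes of the cytosol (no suffix or the suffix 1, and Tarsl2) and 17 encode enzymes of the mitochondrion (suffix 2). The rule uses symbols and no measured value. RNA was sequenced from primary T cells of C57BL/6NJ mice, an inbred laboratory strain, in 4 libraries, numbered 1 to 4 as biological replicates in the labels and forming a single group. Sex and age are not recorded in the labels. The alignment names inside the files read Th0, activated and 24 h for every library, a protocol for differentiating CD4+ T cells is linked, and the assay is called total RNA-seq although the linked library protocol is named for polyadenylated RNA. There is no untreated or resting group, so all statements concern levels within these cells and the spread between the libraries.

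A cell charges its transfer RNAs in 2 places. In the cytosol the charged transfer RNAs feed the ribosomes that make nearly all proteins, and in the mitochondrion a separate set of nuclear-encoded enzymes, imported after translation, serves the few proteins encoded by the mitochondrial genome. Several cytosolic enzymes are held together in the multisynthetase complex on the scaffold proteins AIMP1, AIMP2 and EEF1E1. T cells that leave quiescence enlarge and raise protein synthesis, and an uncharged transfer RNA is the signal that the kinase GCN2 senses before the factor ATF4 is translated, whose known targets include many cytosolic synthetase genes.

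Gene-assigned fragments summed to between 47558517 and 273136467 per library, with replicate 2 the deepest. The member with the fewest fragments had 718 in replicate 4, where counting alone, which is only part of the error, gives a coefficient of variation of 3.73%. T-cell genes were present, the 5 of them (Cd3e, Cd3g, Trac, Cd4 and Cd5) summing to between 3551 and 3886 TPM (a level per base of exon, scaled to the same total in every library). The B-cell markers Cd79a and Ms4a1 were at 0.734 to 2.09 and 0.196 to 0.443 TPM. The 3 myeloid markers (Csf1r at 0) summed to 0.0704 to 0.642, the 2 natural killer markers (Klrb1c at 0) to at most 0.172 and the 2 epithelial and stromal markers to 1.17 to 1.79. Both red-cell markers had no fragment. In bulk RNA, fewer cells of a type and less RNA per cell cannot be told apart. The libraries carry the same donor entry. Yet Xist was at 163 and 150.5 TPM in replicates 1 and 2 and at 0.715 and 0.696 in replicates 3 and 4. The Y-linked gene Ddx3y was at 0.0434 and 0.0219 and at 38.8 and 39.3 in the same order. Replicates 1 and 2 thus stand apart from 3 and 4 in sex-linked genes, with a female pattern in 1 and 2 and a male pattern in 3 and 4. The libraries therefore did not all come from 1 animal, and how many animals were used is not stated. Every p-value below reflects the spread among these libraries of both patterns, and part of that spread may be technical.

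All 38 synthetase genes were detected in every library, the cytosolic ones as a group at several times the level of the mitochondrial ones. Among the 21 cytosolic genes, 20 reached 10 TPM in all libraries and 16 reached 100. Among the 17 mitochondrial genes, 16 reached 10 TPM in all libraries and 0 reached 100. Over all 50600 genes, 16.0% reached 10 TPM and 3.98% reached 100 TPM in all libraries. The median level was 206 TPM for the cytosolic genes and 42.7 TPM for the mitochondrial genes. Summed over members, the cytosolic genes held 4741, 4958, 4855 and 4748 TPM in replicates 1 to 4, and the mitochondrial genes 744.5, 749.6, 822 and 773. The ratio of the sums was 6.26 ± 0.303 (SD, n = 4) and lay between 5.91 and 6.61. The cytosolic sum includes Gars and Kars (means of 463 and 326 TPM), whose enzymes serve both compartments. A ratio without them was not computed. Together the 38 genes took 0.560% of all TPM.

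**Figure D1:**
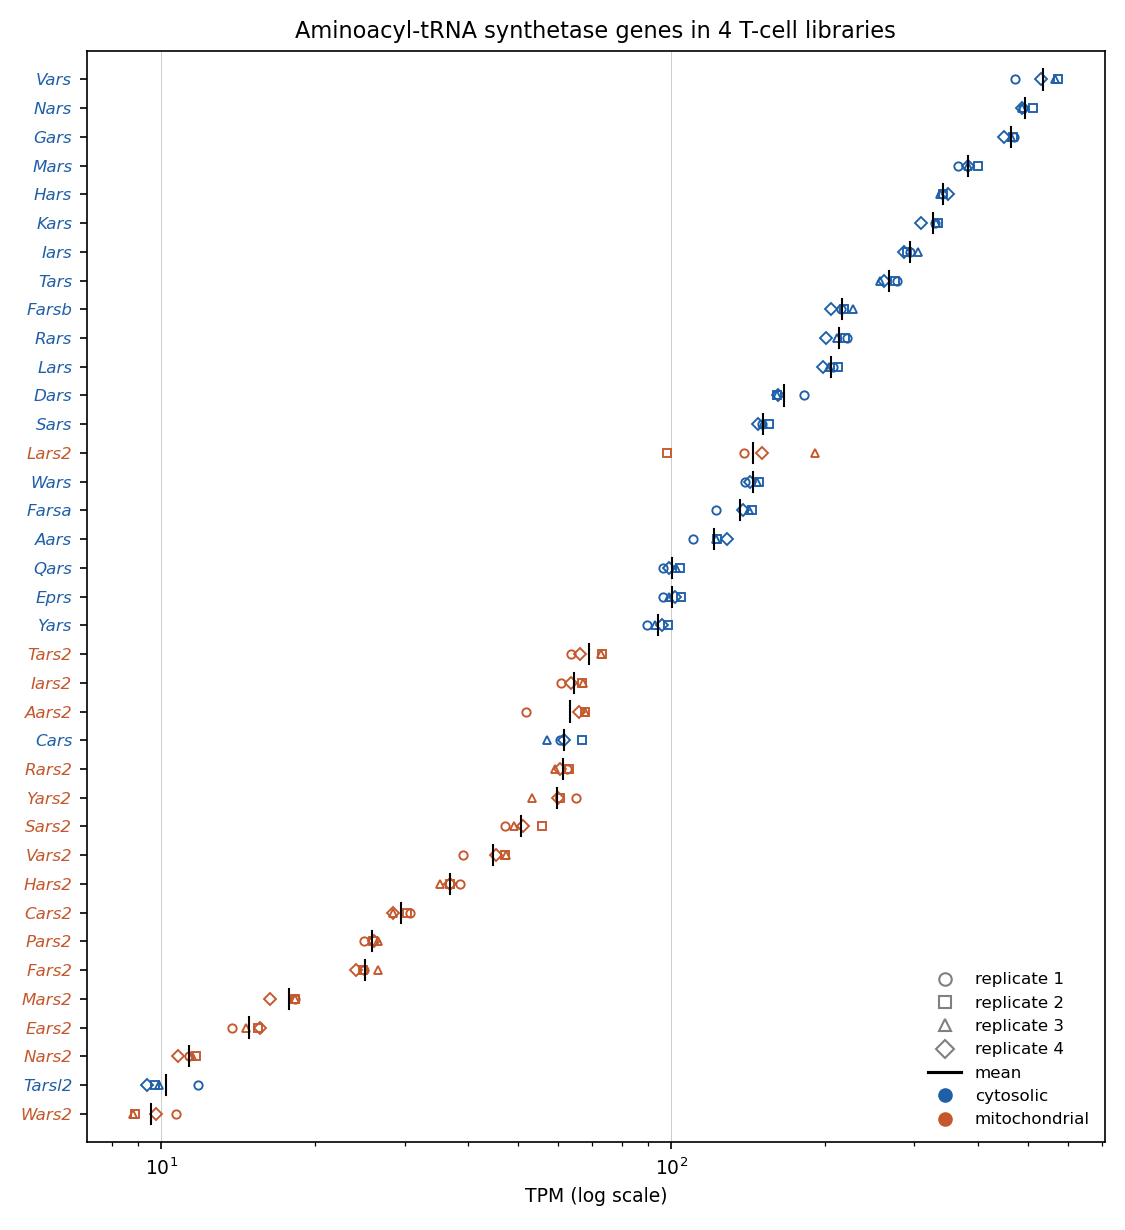
Level in TPM (log axis) of 37 of the 38 synthetase genes, ordered by their mean. Symbols are the 4 libraries, black bars the means, blue cytosolic and orange mitochondrial genes. The 13 highest genes are all cytosolic, and Lars2, with libraries from 98.3 to 191 TPM, is the mitochondrial gene with a mean above 100 TPM.

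The 5 highest cytosolic genes were Vars, Nars, Gars, Mars and Hars, which together held 45.9% of the cytosolic sum. Vars, which charges valine (mm10 chromosome 17, 35000987 to 35016322), stood at 472, 575, 566 and 530 TPM in replicates 1 to 4. Nars, the asparagine enzyme, stood at 489.8, 512, 487 and 488.5. Gars, the glycine enzyme, which serves both the cytosol and the mitochondrion from 1 gene (chromosome 6, 55038007 to 55079500), stood at 469, 468, 465 and 450.0. Vars lay above Nars in 3 of the 4 libraries and their ranges overlapped, while Gars lay below Nars in all 4. Mars, which charges methionine on initiator and elongator transfer RNA (chromosome 10, 127296221 to 127311786), stood at 365, 399, 382 and 382 TPM. Hars, the histidine enzyme, stood at 339, 341, 336 and 349.

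The lower end of the cytosolic group was formed by Yars, Cars and Tarsl2. Yars, the tyrosine enzyme, had 89.8, 98.5, 93.0 and 96.1 TPM, and Cars, the cysteine enzyme, had 60.7, 66.8, 57.2 and 61.7. Tarsl2, a threonyl-tRNA synthetase paralogue of the cytosol (chromosome 7, 65644898 to 65692091), had 11.8, 9.73, 9.89 and 9.39 TPM and was the single cytosolic gene below 10 TPM in some libraries. Tars, the main threonine enzyme, had 278, 274, 256 and 261.5. Tars exceeded Tarsl2 by 4.59 ± 0.11 on the log2(TPM + 1) scale (SD, n = 4), in 4 of 4 libraries. An exon of Tarsl2 shares 120 bases with Tm2d3 on the same strand, where fragments of either gene could not be assigned.

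Among mitochondrial genes the 5 highest were Lars2, Tars2, Iars2, Aars2 and Rars2. Lars2, the mitochondrial leucine enzyme, had 139, 98.3, 191 and 151 TPM and is described further on. Tars2 had 63.7, 73.2, 72.8 and 66.3, and Iars2, the isoleucine enzyme, 60.7, 66.7, 67.3 and 63.7. Aars2, the alanine enzyme, had 52.0, 67.7, 67.7 and 66.1, with replicate 1 below the others, and Rars2, the arginine enzyme, 62.4, 63.1, 59.2 and 60.6. Tars2 lay above Iars2 in 4 of 4 libraries, although their ranges overlapped. From Iars2 through Aars2 and the cytosolic Cars to Rars2, no gene was separated from the next in all libraries.

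The 3 lowest mitochondrial genes were Ears2, Nars2 and Wars2. Ears2, which charges both the glutamate and the glutamine transfer RNA of the mitochondrion with glutamate, had 13.8, 15.5, 14.7 and 15.6 TPM. Nars2, the asparagine enzyme, had 11.4, 11.7, 11.5 and 10.8. Wars2, the tryptophan enzyme (chromosome 3, 99141068 to 99239186), was the lowest of the 38 with 10.7, 8.90, 8.81 and 9.76. Vars, the highest member, was 56.2-fold above it in mean TPM. Over the whole order, 24 of the 37 neighbouring pairs kept their order in all 4 libraries, and in 20 pairs the ranges of the libraries overlapped.

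The cytosolic gene was above the mitochondrial gene of the same amino acid for all 17 amino acids that have one of each, in 4 of 4 libraries. The median difference was 1.94 on the log2(TPM + 1) scale, or 3.84-fold. The largest differences were those of Nars over Nars2 (5.33 ± 0.04), Mars over Mars2 (4.35 ± 0.09), Wars over Wars2 (3.79 ± 0.16) and Vars over Vars2 (3.55 ± 0.03; SD, n = 4). The smallest were those of Lars over Lars2 (0.54 ± 0.42), Yars over Yars2 (0.65 ± 0.14), Aars over Aars2 (0.93 ± 0.11) and Cars over Cars2 (1.04 ± 0.08). The bifunctional enzyme gene Eprs, which charges both glutamate and proline in the cytosol, was above Ears2 by 2.68 ± 0.04 and above Pars2, the mitochondrial proline enzyme, by 1.91 ± 0.04. The exact permutation test that flips the signs of the differences (two-sided) has 16 sign patterns over 4 libraries, and its smallest p is 2 of 16. All 19 pairs compared were at that smallest value, before and after Benjamini-Hochberg adjustment over these pairs, so no pair could pass 0.05.

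These differences depend on the length by which a gene's fragments are divided. TPM was computed over all exons of the counted annotation, which for Eprs come to 18102 bases against 4906 in its principal transcript, the main protein-coding form in the GENCODE vM21 annotation. With principal transcript lengths, which change the scale of all genes (Hars, of nearly equal length in both, went from 341 to 236 TPM), Eprs stood at 257 TPM in place of 100.4 and moved from rank 19 to rank 7 among the 38. The fragments stayed those counted over all exons. Genes with many exon bases outside the principal transcript, such as Eprs and Lars2, can therefore come out too high on this scale. The 5 highest cytosolic genes were then Vars, Kars, Gars, Nars and Mars, and Lars2 (286 TPM) and Tars2 (138 TPM) stayed the highest mitochondrial ones, followed by Yars2, Cars2 and Iars2. The 17 comparisons had a median difference of 2.42. Under that scaling 15 of the 17 kept the cytosolic gene above in all libraries. Lars minus Lars2 was then -1.01 ± 0.42 and Tars minus Tars2 -0.18 ± 0.13 on the log2(TPM + 1) scale (SD, n = 4). The principal transcript of Tars, at 4005 bases, is longer than the 2636 exon bases that were counted. Vars and Wars2 remained the highest and the lowest member under both lengths, but other genes moved at the low end. Among the lowest mitochondrial genes Mars2 (12.3 TPM) then stood with Nars2 and Wars2 in place of Ears2 (26.0 TPM). Among the cytosolic genes Tars (122 TPM) was then below Yars (134 TPM). All 21 cytosolic genes, Tarsl2 included, reached 10 TPM in all libraries on this scale.

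**Figure D2:**
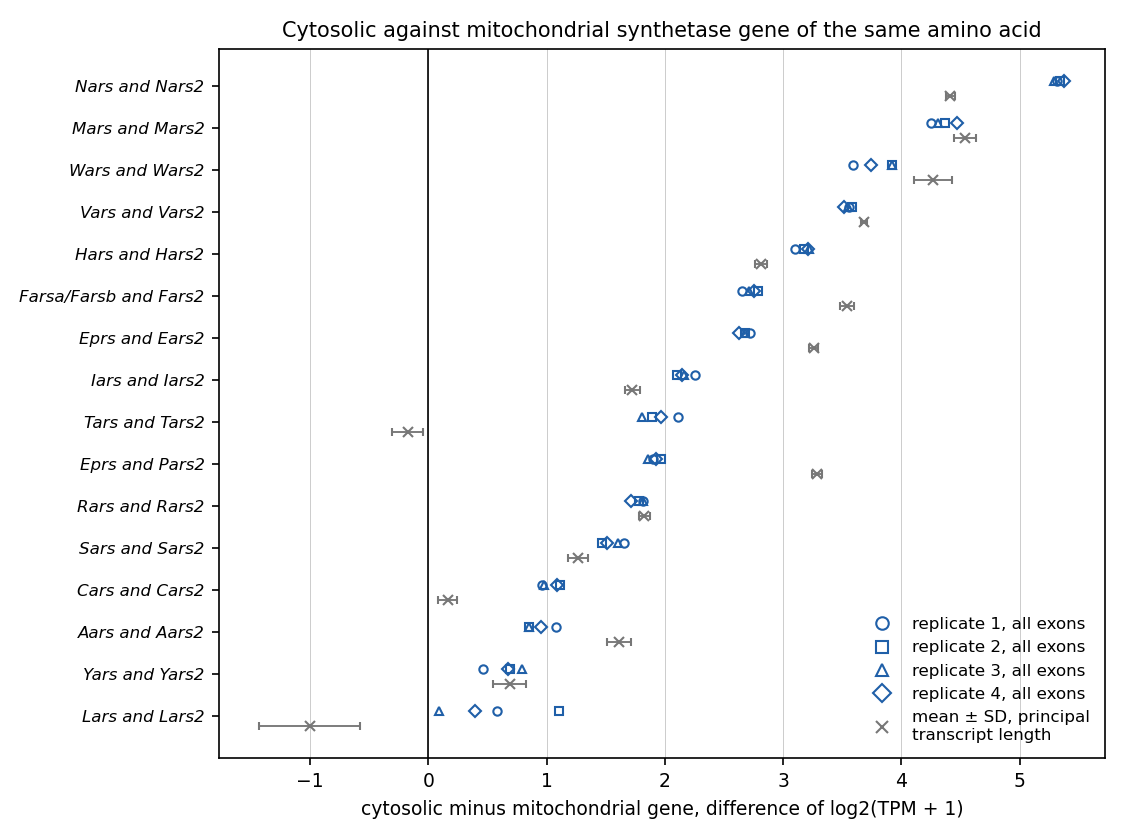
Difference of log2(TPM + 1) between the cytosolic and the mitochondrial gene for 16 of the 17 amino acids, where values right of 0 mean a higher cytosolic gene. Blue symbols are the 4 libraries with the length of all exons, and gray crosses with bars are mean ± SD with the length of the principal transcript. All blue symbols lie right of 0, and the crosses of Tars and Tars2 and of Lars and Lars2 lie left of it.

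The enzymes of the multisynthetase complex lay within the range of the other cytosolic enzymes. The 8 complex genes had a median of 209 TPM and ranged from 100.4 TPM for Eprs and Qars to 382 TPM for Mars. The 13 cytosolic genes outside the complex had a median of 151 TPM and a range from 10.2 to 535. Kars, the lysine enzyme, which also serves both compartments from 1 gene, stood at 326 ± 11.3 TPM (SD, n = 4), Iars at 294 ± 7.84, Rars at 213 ± 9.22, Lars at 206 ± 5.58 and Dars, the aspartate enzyme, at 167 ± 10.4. Of the scaffold genes, Eef1e1 had 442, 378, 330 and 350 TPM, Aimp2 had 215, 213, 213 and 217, and Aimp1 had 50.7, 46.6, 39.7 and 43.3. Eef1e1 and Aimp1 were highest in replicate 1 and lowest in replicate 3, while Aimp2 was level. With principal transcript lengths the order of the scaffold genes turned, with 208 TPM for Aimp2, 155 for Aimp1 and 105 for Eef1e1. No difference between the complex and the other enzymes was tested.

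The 2 catalytic classes, unrelated folds that each charge part of the amino acids, both held high and low genes. The 9 cytosolic class I genes had a median of 206 TPM and the 11 cytosolic class II genes 217 TPM, with Eprs, which holds one domain of each, left out. In the mitochondrial group the medians were 44.8 TPM over 9 class I genes and 39.8 TPM over 8 class II genes. With principal transcript lengths the gaps were wider. The class I and class II medians were then 189 and 231 TPM for cytosolic genes, and 63.1 and 37.6 TPM for mitochondrial genes. The phenylalanine enzyme of the cytosol is built of equal numbers of 2 subunits. Farsb, encoding its β subunit, had 216, 218, 227 and 206 TPM, and Farsa, encoding its α subunit, had 122.5, 144, 142 and 138. Farsb exceeded Farsa by 0.66 ± 0.11 (SD, n = 4) in 4 of 4 libraries with all exons. With principal transcript lengths the difference was -0.28 ± 0.11, so the order of the subunits turns with the length used.

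Genes whose products act before or after the synthetases were all detected. The mitochondrion lacks a glutamine enzyme of its own and converts glutamate on that transfer RNA with an amidotransferase. Its subunit genes were at 22.1 ± 2.36 TPM for Gatb, 44.1 ± 3.76 for Gatc and 27.2 ± 2.61 for Qrsl1 (SD, n = 4), beside 14.9 ± 0.855 for Ears2. Qars, the cytosolic glutamine enzyme, stood at 100.4 ± 3.49. Mtfmt, which formylates the mitochondrial initiator, had 21.0 ± 2.17 TPM, beside 17.8 ± 0.979 for Mars2. Xpot, the exporter of transfer RNA from the nucleus, had 145 ± 2.54, and Trnt1, which adds the CCA end, 84.7 ± 4.74. Of the 4 genes that clear mischarged transfer RNA, Dtd1 had 64.1 ± 2.99 TPM, and Prorsd1, Dtd2 and Aarsd1 had 14.1 ± 2.10, 11.7 ± 1.47 and 7.20 ± 0.422. On the selenocysteine route, which starts from serine attached by Sars (151 ± 3.36), the kinase gene Pstk had 5.74 ± 0.848 and Sepsecs 13.9 ± 0.887, while Sephs2, which makes the selenium donor, had 158 ± 8.18. With principal transcript lengths several orders in this paragraph turned. Pstk was then at 27.8 TPM and Sepsecs at 12.8, and Gatb at 19.0 and Ears2 at 26.0. Xpot was at 101 and Trnt1 at 113. Mtfmt stayed above Mars2, at 26.1 and 12.3 TPM.

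Atf4 itself stood above Asns, Ddit3, Trib3, Chac1 and Sesn2 in every library, with no resting group to set these levels against. Atf4 had 771, 778, 745 and 774 TPM. Asns, the asparagine synthetase that makes the amino acid, had 18.2, 19.0, 17.7 and 20.1, and Ddit3, Trib3 and Chac1, genes raised in amino acid or reticulum stress, had 8.55 ± 0.780, 4.54 ± 0.700 and 2.45 ± 0.798 TPM (SD, n = 4). Sesn2, a stress gene that restrains mTORC1, had 82.0, 88.3, 115 and 111 TPM, low in replicates 1 and 2 and high in 3 and 4, the libraries that also stand apart in Xist and Ddx3y. The T-cell markers Cd4 (653, 680, 737 and 720 TPM), Cd3e, Trac and Cd5 were also lower in replicates 1 and 2. Cd3g was higher there. Eif2ak4, encoding GCN2, had 27.8 ± 1.49, and Gcn1l1, encoding its partner GCN1, 88.5 ± 8.04. The 12 cytosolic synthetase genes listed as known ATF4 targets had a median of 179 TPM with 12 of 12 at 10 or more in every library, and the 9 other cytosolic genes had a median of 213 TPM. By library the mean deviation of the 12 was -0.03, 0.04, -0.01 and -0.01 on the log2(TPM + 1) scale in replicates 1 to 4, where Sesn2 deviated by -0.25, -0.15, 0.23 and 0.17.

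The sequence that ATF4 binds with C/EBP partners was present at the starts of some of these genes. RefSeq promoter sequences (build GRCm38.p6, 250 bases before to 50 bases after the start) were matched for 28 of the 38 members. TGATGNAA was searched on both strands, that is also as TTNCATCA. It was in 5 of the 14 cytosolic and 0 of the 14 mitochondrial members with a sequence, against 3.97% of all 32851 promoters of the same length. The 5 were among the 8 listed ATF4 targets with a sequence, and 0 of the 6 other cytosolic members held it. Of the other motifs searched, the E-box CACGTG was in 4 of the 14 cytosolic (Iars, Tars, Farsb and Aars) and 1 of the 14 mitochondrial members (Ears2), against 7.15% of all promoters. The NRF1 element, searched on both strands, was in 3 cytosolic (Kars, Tars and Farsb) and 2 mitochondrial members (Iars2 and Mars2), against 4.60%. In Tars an E-box and an NRF1 element adjoin, and no match in these members overlaps another. A match is a run of letters and not a measured binding site. One TGATGNAA site of each of its 5 genes is shown 5′ to 3′ on the strand of the gene, with 10 bases on each side and the motif in capitals, so that the cytosolic members counted above can be read.
Gars, chr6:55037961-55037988, motif 30 bases before the start: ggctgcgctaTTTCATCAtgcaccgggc
Tars, chr15:11399656-11399683, minus strand, motif 15 bases before the start: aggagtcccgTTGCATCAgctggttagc
Aars, chr8:111033841-111033868, motif 9 bases after the start: gcgggtcactTTTCATCAgagcgctctg
Iars, chr13:49682127-49682154, motif 7 bases after the start: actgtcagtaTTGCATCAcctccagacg
Yars, chr4:129189896-129189923, motif 3 bases after the start: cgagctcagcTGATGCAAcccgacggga
The genes with these sites were not the highest as a set: Gars stood at 463 ± 8.86 TPM, Iars at 294 ± 7.84, Tars at 267 ± 10.2, Aars, the cytosolic alanine enzyme, at 121 ± 7.61 and Yars at 94.4 ± 3.75 (SD, n = 4). Aars shares 1326 of its 9282 exon bases with Exosc6 on the same strand, where fragments were not assigned.

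Lars2 was the synthetase gene that varied most between libraries. The coefficient of variation over libraries had a median of 4.15% over the 38 members, and 35 of them were under 10%. All 38 passed the filter on low counts. Of the 12712 genes tested for variation between replicates, 46 (0.362%) were called by edgeR (residual deviance of a model with 1 mean per gene, Benjamini-Hochberg adjusted p of 0.05), and of the 38 members 1 was called, Lars2. At an unadjusted p of 0.05 the count was 2 of 38, with Aars2 as the other, against 5.54% of all genes. The median residual deviance was 1.08 over the members and 1.98 over all tested genes. The share of all genes called was 0.312%, 0.197%, 0.238% and 0.246% without replicates 1, 2, 3 and 4. It was 0.354% with DESeq2 size factors, 0.207% with no filter, 0.366% with replicate 2 thinned to the depth of replicate 3 and 6.78% with a common dispersion. Lars2 was the 1 member called in each of these but the fit without replicate 2, where 0 members were called by edgeR.

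Lars2 (ENSMUSG00000035202.8, chromosome 9, 123366927 to 123462666) was lowest in replicate 2 and highest in replicate 3, at 139, 98.3, 191 and 151 TPM from 27340, 86272, 29991 and 23479 fragments. The highest library was 1.95-fold above the lowest, where the other 37 members reached at most 1.30-fold. Its residual deviance was 39.6 and its edgeR adjusted p 8.54e-06. Without replicate 2 the deviance was 7.13 and the adjusted p 0.905, so the call rests on that library. With any other replicate left out the edgeR adjusted p lay between 4.94e-07 and 0.00922. Lars, the cytosolic leucine enzyme, stayed at 208, 212, 204 and 199 TPM. Without Lars2, which held 18.8% of the mitochondrial sum, the ratio of cytosolic to mitochondrial TPM was 7.69 ± 0.0978 (SD, n = 4).

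Some genes outside the family shared the lowest and the highest library of Lars2, and their part in its spread was not tested. The predicted genes Gm42418, Gm24187 and Gm23935, named here after their values were seen, were lowest in replicate 2 and highest in replicate 3. Gm42418 had 2645, 1123, 4158 and 2191 TPM, Gm24187 1658, 836, 2237 and 1652, and Gm23935 7738, 3612, 8050 and 6815. Gm24187 and Gm23935 have only 57 exon bases each, against 1831 for Gm42418, which makes their TPM large for the fragments counted. All 3 were called by edgeR with all libraries, and without replicate 2 the adjusted p was 0.000491 for Gm42418, 0.738 for Gm24187 and 1.00 for Gm23935. Between replicates 1 and 4 the order was not shared by all. Lars2 had 139 and 151 TPM there, while Gm42418 and Gm23935 were higher in replicate 1. Gm24187 was nearly level, at 1658 and 1652 TPM. These gaps between single libraries were not tested. The principal transcript of Lars2 has 3894 bases of the 11089 exon bases counted. No run of 31 bases in the annotated Lars2 transcripts was found in these 3 genes or in the mitochondrial ribosomal RNA genes mt-Rnr1 and mt-Rnr2. The principal transcript shared 22 such runs with Gm15564, which had 14.1, 9.59, 15.7 and 21.5 TPM. Gm15564 was not alone in this: the principal transcript shared 26 runs with AA474408, and other annotated Lars2 transcripts shared up to 38 with further genes. Malat1, a long noncoding RNA of the nucleus, was highest in replicate 3 as well, at 72.3 TPM against 39.7 to 47.6, while mt-Rnr1 (409.6, 319.5, 278 and 292 TPM) was highest in replicate 1.

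**Figure D3:**
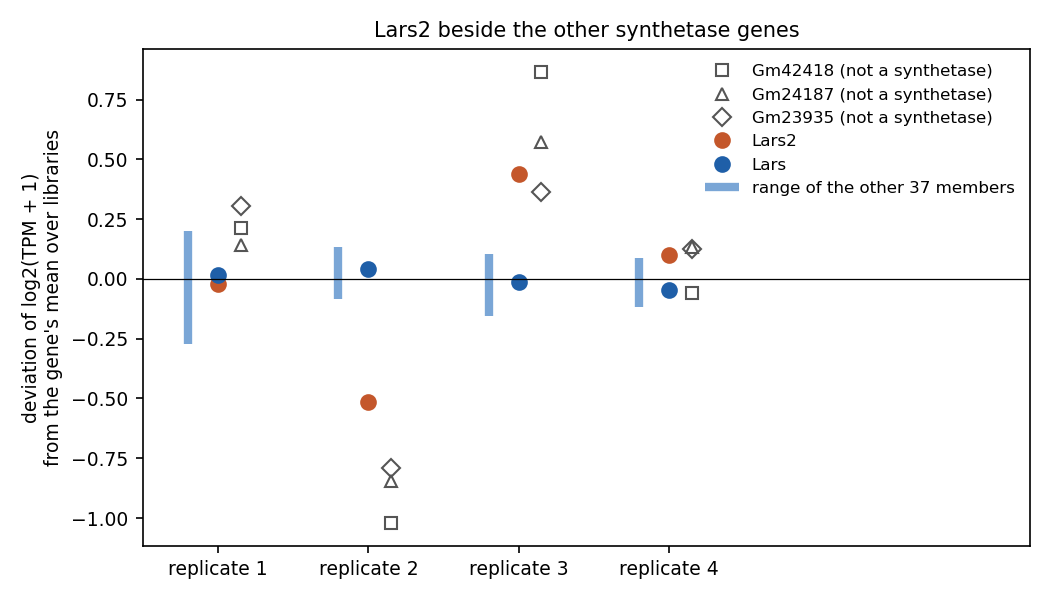
Deviation of log2(TPM + 1) from each gene's mean over the 4 libraries, for Lars2 (orange), Lars (blue) and 3 predicted genes outside the family (open symbols), with the range of the other 37 members as blue bars. Lars2 lies outside the blue bar in replicates 2 and 3, at -0.52 and 0.44, on the same side as the 3 predicted genes. In replicate 4 Lars2 is just above the bar at 0.10, with Gm42418 at -0.06, Gm24187 at 0.13 and Gm23935 at 0.12. In replicate 1 Lars2 is at -0.02 and the 3 genes are at 0.21, 0.14 and 0.31.

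Replicate 1 differed from the others along GC content. Across the 38 members, which are genes and not independent replicates, the deviation in replicate 1 had a Spearman's rho of -0.68 with the GC content of the principal transcript, against 0.42, 0.31 and 0.51 in replicates 2, 3 and 4. Deviations of a gene sum to 0 over the libraries, so these values are not independent. Across 10949 genes of all kinds the values were -0.43, 0.12, 0.22 and 0.24. Vars, at 60.9% GC, was lowest in replicate 1 (472 TPM against 530 to 575). So were Aars2 at 60.0% GC (52.0 against 66.1 to 67.7) and Vars2, the mitochondrial valine enzyme, at 58.6% GC (39.1 against 45.4 to 47.4). Dars, at 41.2% GC, was highest there (182 against 161 to 162). Not every member followed the trend. Of the 11 members above 55% GC, 10 were below their own mean in replicate 1, but Cars2, at 55.8%, was highest there (30.7 against 28.5 to 30.3 TPM). Mars2, the member of lowest GC at 38.8%, was at 18.3 TPM in each of replicates 1, 2 and 3. None of Vars, Aars2, Vars2 and Dars was called by edgeR (adjusted p of 0.616 or more), and the part of GC content in the differences was not tested.

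**Figure D4:**
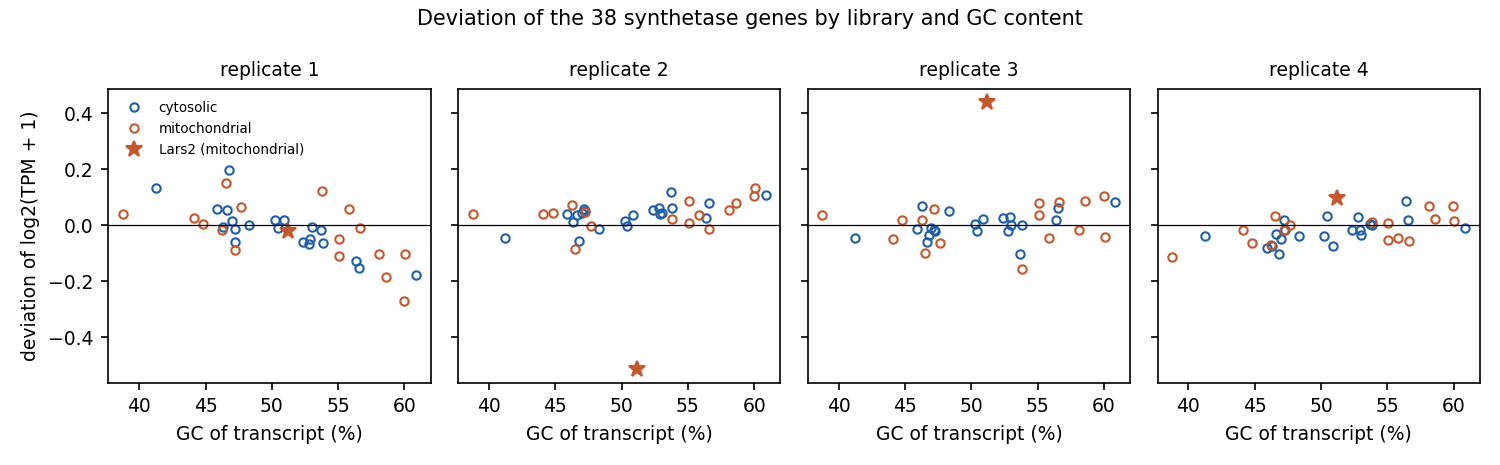
Deviation of log2(TPM + 1) of each member from its mean over libraries against the GC content of its principal transcript, 1 panel per library. In replicate 1 the points fall with GC content (Spearman's rho of -0.68), and in replicates 2 and 3 the star marking Lars2 lies apart from the other points.

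The members of largest residual deviance after Lars2 were Aars2 (10.1), Vars2 (5.13), Yars2 (4.75) and Tarsl2 (4.39), with edgeR adjusted p-values from 0.616 to 1.00. Yars2, the mitochondrial tyrosine enzyme, had 65.0, 60.5, 53.4 and 60.1 TPM, lowest in replicate 3. Vars2 had 39.1, 47.2, 47.4 and 45.4. Of the 26 genes in the 7 lists of partner and response genes, all 26 were tested and 1 was called, Sesn2 (edgeR adjusted p = 0.011). That call was lost with no filter (adjusted p = 0.0673), with a common dispersion (0.322) and without replicate 2 (0.202), 3 (0.210) or 4 (0.127). It followed the split of the libraries in sex-linked genes, and the part of that split was not tested. Eef1e1 had an edgeR adjusted p of 0.237.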

How the data were processed

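The deposited files hold counts per gene. The authors made them with featureCounts 1.4.6-p4 on GENCODE vM13 exons, per the file headers, taking read pairs of which both mates aligned, on the reverse strand, without options that would count fragments at several places or over several genes. The input is named as STAR output, and how STAR was run is not given in the sources used here. The build is mm10 per the labels. Length in the deposited files is the summed exon length of a gene.

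TPM was computed from counts and Length, and symbols came from GENCODE vM21 (50376 of 50600 matched). Variation between libraries was tested with edgeR 4.0.16 (R 4.3.3, filterByExpr with minimum count 10, TMM, trended dispersion, 1 mean per gene, deviance against chi-square on 3 degrees of freedom). In simulated counts for 12712 genes it recovered 24.2%, 82.9% and 98.5% of genes moved 1.5-, 2- and 4-fold, with 4 false calls. The moved genes were taken from all levels and each raised in a single library. Counts were drawn at the dispersion that the test assumes, so the number of false calls does not cover genes that lie off this trend. Pairs were compared on log2(TPM + 1). Python 3.11.15, numpy 2.4.6, pandas 2.3.3 and scipy 1.17.1 were used, and DESeq2 1.42.0 for size factors in an alternative.

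Members, lists and tests were chosen with earlier results of these data known. Per-library values are given for the 5 highest and 3 lowest members of each compartment, the 5 of largest deviance and the subunit and paralogue pairs. Gm42418, Gm24187, Gm23935, Gm15564, Malat1, mt-Rnr1, mt-Rnr2, Xist and Ddx3y were named after their values were seen. Protein sequences were not used here, so the planned summaries of amino acid usage and protein identity were not made. Single values of 1 member, 1 marker and 1 promoter site are not reported here, though counts and medians include them.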

Additional observations from a re-analysis of the deposited data

Results flagged for a closer look

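In 7 of 87 sets of 4 values, 1 library lay farther from the rest than Dixon's 95% limit for the share of the range allows; chance gives about 1 in 20. Replicate 2 was apart in total fragments (273136467 against 47558517 to 60102919) and in Nars (512 TPM against 487 to 489.8). Replicate 1 was apart in Dars (182 TPM against 161 to 162), Aars2 (52.0 against 66.1 to 67.7), the proline-editing gene Prorsd1 (17.3 against 12.9 to 13.2) and the D-aminoacyl-tRNA deacylase gene Dtd2 (13.9 against 10.8 to 11.04). Replicate 4 was apart in Mars2, the mitochondrial methionine enzyme (16.3 TPM against 18.3 in each of the others). By edgeR 0 of these 6 genes varied between replicates, with adjusted p of 1.00 for 5 of them and 0.616 for Aars2. Lars2 was not among the 7, since its libraries were spread over the range.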

How the results depend on the processing

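No paired analysis was possible because the labels give 1 group. Scaling by principal transcript length and leaving out Lars2 were chosen after seeing the data. FPKM differs from TPM by the same factor for every gene of a library and was lower here, so a cutoff of 10 is stricter in FPKM. At that cutoff 10 mitochondrial genes passed in all libraries in place of 16. The FPKM medians were 60.2 and 12.5 for cytosolic and mitochondrial genes. The cytosolic median was 213 TPM without Aars and Tarsl2, whose exons overlap another gene on their strand, and 226 with principal transcript lengths. The mitochondrial median was 39.8 TPM without Lars2. The ratio of summed TPM (6.26) was 4.63 with principal transcript lengths, 4.36 with CPM and 7.69 without Lars2. Lars minus Lars2 turned to -0.98 with CPM and -1.01 with principal transcript lengths, Farsb minus Farsa to -0.13 and -0.28, and Tars minus Tars2 to -0.18 with principal transcript lengths. A pseudocount of 0.1 and leaving out each replicate reversed 0 of the 19 differences. The 46 genes varying between replicates became 862 with a common dispersion and between 25 and 40 in the fits that left out 1 library, the lowest without replicate 2. The members among them numbered 0 (without replicate 2) to 1. Fragments outside unique alignments were not counted, and exon length limits how far levels of different genes can be compared.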
